A study of Mus musculus with 5 samples.

Results

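Cholesterol and fatty acid synthesis genes were examined in pancreatic beta cells in which the cell cycle inhibitor p16INK4a had been switched on. The genes are 32 listed members of the SREBP pathway, the mevalonate pathway, the sterol route from squalene to cholesterol, sterol transport and fatty acid synthesis, out of 23951 genes in the table, and all 32 symbols were found there. They are listed by name, for what their products do, and the list was drawn up with earlier results of these data known. In the p16 group, cells carried the transgenes Ins-rtTA, tet-GFP and tet-p16ink4a and expressed both p16INK4a and green fluorescent protein. In the GFP group, cells carried Ins-rtTA and tet-GFP without tet-p16ink4a and expressed the fluorescent protein alone. The rtTA activator and the fluorescent protein were thus present in both groups, and mice of both groups received tetracycline for 10 days before their islets were dissociated and fluorescent cells were sorted. As the name of the driver gives it, rtTA is under an insulin promoter, and the tet transgenes depend on rtTA. How strictly this limited them to beta cells was not tested. RNA-seq was done on 5 samples, 3 of the p16 group and 2 of the GFP group, and the comparison asks how each step of lipid synthesis differed where p16INK4a was expressed.

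Cells make cholesterol from acetyl-CoA through mevalonate, farnesyl diphosphate, squalene and lanosterol, and they make fatty acids from the same acetyl-CoA by way of malonyl-CoA. Both routes are under the control of the SREBP transcription factors, which sit in the membrane of the endoplasmic reticulum bound to SCAP. When sterols are scarce, SCAP carries them to the Golgi, where they are cut and released to the nucleus; when sterols are plentiful, INSIG proteins hold SCAP back. SREBPs act on promoters together with NF-Y and Sp1, and in beta cells the supply of cholesterol and fatty acids affects the membranes of insulin granules and their exocytosis.

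The values are the authors' FPKM (fragment counts scaled by transcript length and by library size), with 1 value per group and gene. Because of the scaling by length, levels may be set side by side between genes as a rough guide. This scaling does not account for GC content, overlapping genes or sequence shared between genes. No value per sample was given, so the spread between samples is not shown, no SD can be printed and the depth of each library is unknown. A gene is called higher or lower where the q-value in the authors' deposited table is below 0.05. The submitters' design text gives 3 p16 mice and 2 GFP mice. Samples are not tied to single mice in the labels, and these q-values may in part reflect technical spread. In sorted bulk cells, a change in the share of cells that express a gene cannot be told apart from a change in RNA per cell.

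The promoters of 5 members are shown. Those of Mvd, Acsl3 and Lss belong to the called members of largest log2 ratio that had a promoter in the table. The others are that of Idi1, a member at nearly the same level in both groups, and that of Hmgcs1. Hmgcs1 is the single member with a match to the sterol regulatory element. Each sequence is the 250 bases before the gene's start, read 5′ to 3′ along the gene's strand, from RefSeq on build GRCm38.p6. The capitals mark matches on either strand to the sterol regulatory element TCACNCCAC, the NF-Y box CCAAT, the Sp1 box GGGCGG or the E-box CACGTG. The Mvd promoter lies at chr8:122443423-122443672 on the minus strand, that of Acsl3 at chr1:78657575-78657824, that of Lss at chr10:76531355-76531604, that of Idi1 at chr13:8885356-8885605 and that of Hmgcs1 at chr13:119690101-119690350, the last 4 on the plus strand.
Mvd: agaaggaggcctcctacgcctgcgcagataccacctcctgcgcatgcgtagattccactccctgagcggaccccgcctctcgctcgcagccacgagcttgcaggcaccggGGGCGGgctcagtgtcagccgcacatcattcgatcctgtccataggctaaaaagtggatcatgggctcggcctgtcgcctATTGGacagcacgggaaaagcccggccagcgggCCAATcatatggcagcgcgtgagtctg
Acsl3: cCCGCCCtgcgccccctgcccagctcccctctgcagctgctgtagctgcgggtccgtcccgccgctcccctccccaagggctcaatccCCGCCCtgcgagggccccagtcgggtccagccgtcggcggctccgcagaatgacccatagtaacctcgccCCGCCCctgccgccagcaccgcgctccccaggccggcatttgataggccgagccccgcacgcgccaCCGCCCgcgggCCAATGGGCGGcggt
Lss: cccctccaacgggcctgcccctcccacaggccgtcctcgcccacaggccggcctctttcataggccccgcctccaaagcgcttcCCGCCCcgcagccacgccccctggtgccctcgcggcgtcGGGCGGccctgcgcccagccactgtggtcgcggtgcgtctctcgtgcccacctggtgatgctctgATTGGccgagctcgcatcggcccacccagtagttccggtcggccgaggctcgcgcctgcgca
Idi1: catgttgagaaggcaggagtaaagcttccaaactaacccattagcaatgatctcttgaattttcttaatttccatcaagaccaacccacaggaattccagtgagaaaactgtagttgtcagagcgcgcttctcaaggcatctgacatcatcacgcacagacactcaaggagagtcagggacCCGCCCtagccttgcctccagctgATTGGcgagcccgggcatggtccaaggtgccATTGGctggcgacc
Hmgcs1: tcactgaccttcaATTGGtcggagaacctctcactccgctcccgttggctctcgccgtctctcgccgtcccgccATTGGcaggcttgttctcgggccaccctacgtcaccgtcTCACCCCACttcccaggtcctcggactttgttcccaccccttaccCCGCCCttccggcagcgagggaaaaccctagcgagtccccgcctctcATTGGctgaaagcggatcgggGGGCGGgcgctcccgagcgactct

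Positions are counted from the gene's start, with -1 for the base before it. In the Mvd promoter an NF-Y box began at -27 and another, on the opposite strand, at -60. The Acsl3 promoter held 5 Sp1 boxes, the nearest of which began at -10, directly after an NF-Y box at -15. In the Hmgcs1 promoter the sterol regulatory element began at -137, between NF-Y boxes at -176 and -45. All 5 promoters held both an NF-Y box and an Sp1 box, which was not so for every member. Pmvk and Fasn, both called, had no Sp1 box, and Scap and Abca1 had no NF-Y box. Acaca and Elovl6 had neither of these boxes.

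Of the 31 members that the authors had tested, 8 were higher with p16 and 0 were lower at a q-value below 0.05 in the authors' deposited table, from Cuffdiff. Over all 13264 tested genes, 4.32% were called higher and 1.1% were called lower. Among the members the share called higher was 25.8%, a description of a list whose results were known in part when it was drawn up. In the order of their log2 ratios, the called genes were Mvd, Acsl3, Scd1, Lss, Dhcr7, Scd2, Pmvk and Fasn. They belong to the mevalonate pathway, the sterol route and fatty acid synthesis. None of the 5 regulators and none of the 3 transport genes passed. At an unadjusted p-value below 0.05 in the authors' deposited table there were 13 members, or 41.9%, all with the higher value in p16, against 17.2% of all tested genes. The FPKM value was higher in p16 for 25 of 31 members, or 80.6%, against 48.4% of all tested genes. The median log2 ratio of p16 over GFP was 0.50 over the members and -0.02 over all tested genes. Summed over the members, FPKM was 2134 in p16 and 1747 in GFP, and over all tested genes 411861 in p16 and 430278 in GFP. Abundant members weigh most in the sum of the members, among them Acly, with the lower value in p16, and Scd2, with the higher.

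**Figure D1:**
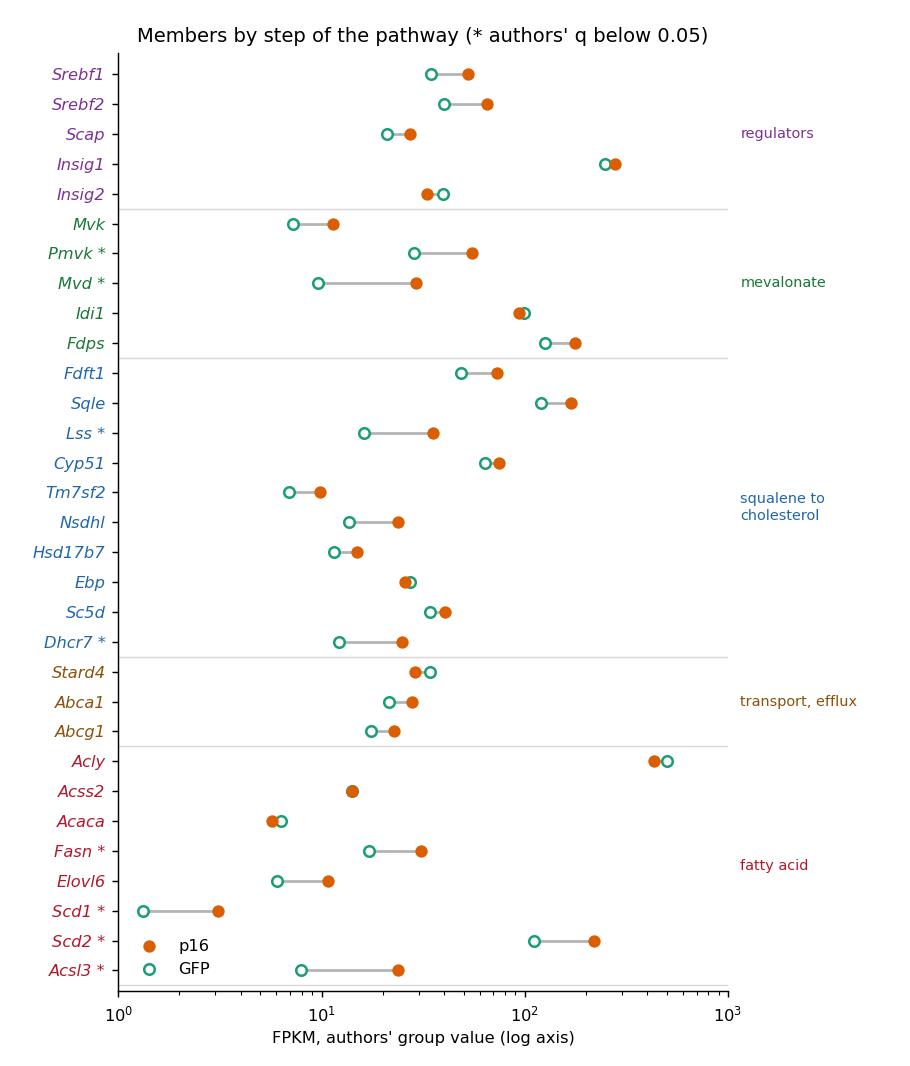
FPKM of the 31 tested members on a log axis, 1 authors' value per group, with p16 as filled and GFP as open points, ordered by step of the pathway; an asterisk marks an authors' q-value below 0.05. The p16 point lies right of the GFP point in 25 members, and the 8 called genes have the widest gaps, from Fasn at 30.9 FPKM in p16 and 17.1 FPKM in GFP to Mvd at 29.2 FPKM in p16 and 9.60 FPKM in GFP.

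Among the regulators, both SREBP genes had the higher value in p16 without passing the threshold. Srebf2, whose product SREBP-2 acts mainly on cholesterol synthesis genes, had 65.1 FPKM in p16 and 40.2 FPKM in GFP, a log2 ratio of 0.70 (q = 0.108 in the authors' deposited table). Srebf1, whose product SREBP-1 acts mainly on fatty acid synthesis genes, had 52.9 FPKM in p16 and 34.6 FPKM in GFP, a log2 ratio of 0.61 (q = 0.246 in the authors' deposited table). At an unadjusted level the p-values in the authors' deposited table were 0.0088 for Srebf2 and 0.0364 for Srebf1, the only 2 of the 5 regulators below 0.05. The locus that the table gives for Srebf1 also holds Rai1, at 5.53 FPKM in p16 and 2.56 FPKM in GFP, and the genes Mir6921 and Mir6922, and that of Srebf2 holds Mir33, so reads of overlapping genes may be split between them.

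The other regulators lay closer together in both groups. Scap, the escort of the SREBPs, had 27.3 FPKM in p16 and 20.9 FPKM in GFP (q = 0.5 in the authors' deposited table). Insig1, which retains SCAP in the endoplasmic reticulum and is itself an SREBP target, was the most abundant regulator, at 277 FPKM in p16 and 249 FPKM in GFP (q = 0.852 in the authors' deposited table). Insig2, the related retention protein, had the lowest log2 ratio of the 31 tested members, -0.27, with 32.9 FPKM in p16 and 39.8 FPKM in GFP, short of the threshold (q = 0.667 in the authors' deposited table). The median log2 ratio of the 5 regulators was 0.38.

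Along the mevalonate pathway, which turns acetyl-CoA into the isoprenoid building blocks of sterols, 2 of 5 tested genes rose, and the median log2 ratio was 0.66. Mvd, which decarboxylates mevalonate diphosphate to isopentenyl diphosphate, had the highest log2 ratio of all members. It had 29.2 FPKM in p16 and 9.60 FPKM in GFP, a 3.04-fold rise and a log2 ratio of 1.61 (q = 0.00245 in the authors' deposited table). The Mvd locus is on chromosome 8, 124957496 to 124967322, in mm9. Pmvk, the kinase that acts just before it, had 55.1 FPKM in p16 and 28.5 FPKM in GFP, a log2 ratio of 0.95 (q = 0.013 in the authors' deposited table), and lies on chromosome 3, 89263040 to 89272931.

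The kinase before these, encoded by Mvk, had 11.4 FPKM in p16 and 7.25 FPKM in GFP, a log2 ratio of 0.66, with an unadjusted p-value of 0.0405 and a q-value of 0.263 in the authors' deposited table. The enzymes after Mvd were more abundant, with log2 ratios closer to 0. Idi1, which interconverts the isopentenyl and dimethylallyl forms, had 94.1 FPKM in p16 and 99.4 FPKM in GFP (q = 0.941 in the authors' deposited table). Fdps, the farnesyl diphosphate synthase, had 177 FPKM in p16 and 126 FPKM in GFP, a log2 ratio of 0.50 (q = 0.324 in the authors' deposited table). Neighbouring steps thus gave log2 ratios from -0.08 at Idi1 to 1.61 at Mvd.

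For Hmgcs1, whose product makes HMG-CoA at the head of the pathway, the table lists 0 FPKM in both groups and no test. Its locus in the table is on the unplaced part of chromosome 13 in mm9, on which 0 of 5 genes had a value above 0. Across all unplaced parts of chromosomes, 7 of 90 genes had a value above 0 and 2 had been tested. The 0 of Hmgcs1 is therefore a listed value and was not read as absence of the transcript.

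From squalene to cholesterol, 9 of 10 genes had the higher value in p16, 2 of them passed, and the median log2 ratio was 0.49. Lss, the lanosterol synthase that closes the sterol rings, had 35.2 FPKM in p16 and 16.1 FPKM in GFP, a 2.19-fold rise and a log2 ratio of 1.13 (q = 0.00245 in the authors' deposited table). Its locus is on chromosome 10, 75994372 to 76024971, in mm9, and it shares that locus with 4930483K19Rik. Dhcr7, the reductase at the end of the route through 7-dehydrocholesterol, had 24.9 FPKM in p16 and 12.1 FPKM in GFP, a 2.06-fold rise and a log2 ratio of 1.04 (q = 0.00752 in the authors' deposited table), and lies on chromosome 7, 151009072 to 151034315. Nsdhl, a sterol dehydrogenase that takes part in removing methyl groups from the ring system, had 23.8 FPKM in p16 and 13.6 FPKM in GFP and came next, with a log2 ratio of 0.81 (q = 0.0744 in the authors' deposited table).

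The 3 most abundant genes of the sterol route had higher values in p16 but did not pass. Sqle, the squalene epoxidase that adds oxygen before ring closure, had 168 FPKM in p16 and 120.4 FPKM in GFP, a log2 ratio of 0.48 (q = 0.348 in the authors' deposited table). Cyp51, the demethylase that acts on lanosterol, had 74.8 FPKM in p16 and 64.1 FPKM in GFP, a log2 ratio of 0.22 (q = 0.747 in the authors' deposited table). Fdft1, the squalene synthase, had 72.9 FPKM in p16 and 48.5 FPKM in GFP, a log2 ratio of 0.59 (q = 0.565 in the authors' deposited table). Its locus in the table also holds the cathepsin gene Ctsb, at 70.5 FPKM in p16 and 63.9 FPKM in GFP, so its value is uncertain.

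Sc5d, a sterol desaturase, had 40.6 FPKM in p16 and 34.04 FPKM in GFP (q = 0.706 in the authors' deposited table). Ebp, the sterol isomerase, was the only gene of the route with the lower value in p16, at 25.6 FPKM against 27.3 FPKM in GFP (q = 0.927 in the authors' deposited table). Hsd17b7, a ketosteroid reductase of the route, and Tm7sf2, a sterol reductase, were below 20 FPKM in both groups. Hsd17b7 had 14.9 FPKM in p16 and 11.5 FPKM in GFP, and Tm7sf2 had 9.86 FPKM in p16 and 6.94 FPKM in GFP. Tm7sf2 shares its locus with the more abundant Vps51, at 23.1 FPKM in p16 and 19.3 FPKM in GFP, and is uncertain for that reason.

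**Figure D2:**
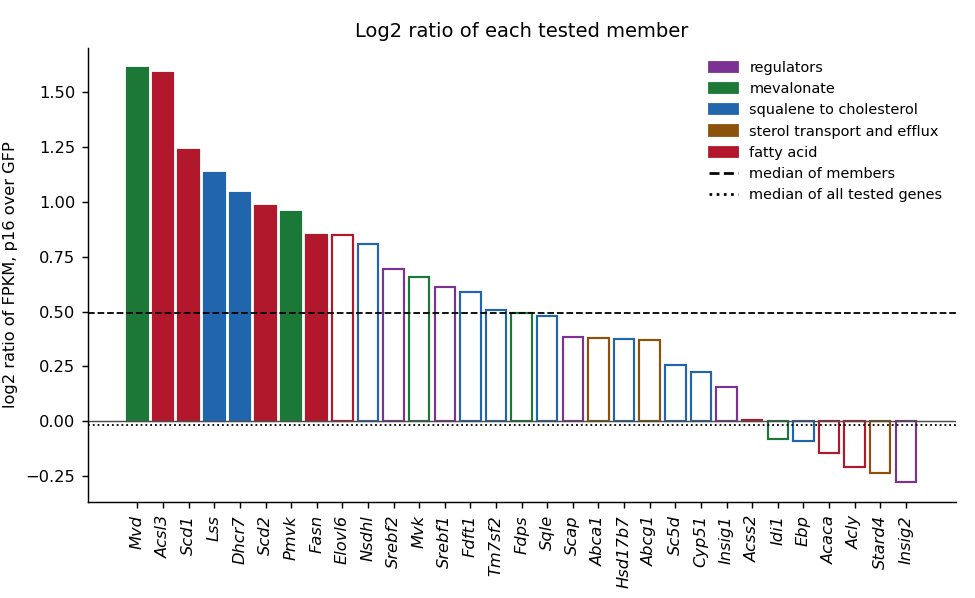
Log2 ratio of FPKM, p16 over GFP, for each of the 31 tested members, coloured by step of the pathway; filled bars mark an authors' q-value below 0.05 and open bars those not called, dashed and dotted lines the medians of the members and of all tested genes. The 8 filled bars run from 0.85 for Fasn to 1.61 for Mvd, next to open Elovl6 at 0.85, and 6 bars lie below 0, down to Insig2 at -0.27.

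Of the genes for sterol transport and efflux, 0 of 3 were called at a q-value below 0.05 in the authors' deposited Cuffdiff table, and none had an unadjusted p-value below 0.05. Abca1, which exports cholesterol to apolipoproteins and is a target of the sterol-sensing LXR receptors, had 28.0 FPKM in p16 and 21.6 FPKM in GFP (q = 0.504 in the authors' deposited table). Abcg1, a related exporter and LXR target, had 22.7 FPKM in p16 and 17.6 FPKM in GFP (q = 0.509 in the authors' deposited table). Stard4, a soluble carrier that moves cholesterol between membranes, had 29.0 FPKM in p16 and 34.1 FPKM in GFP (q = 0.74 in the authors' deposited table). Both exporters thus had the higher value in p16 and the carrier the lower, with log2 ratios of 0.38, 0.37 and -0.23.

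In fatty acid synthesis, 4 of 8 genes rose and the median log2 ratio was 0.85, the highest of the 5 steps without a pseudocount. With a pseudocount of 5 it was 0.44, below the 0.48 of the mevalonate pathway. Those that rose act from the synthase onward. Fasn, the fatty acid synthase that builds palmitate, had 30.9 FPKM in p16 and 17.1 FPKM in GFP, a log2 ratio of 0.85 (q = 0.039 in the authors' deposited table), and lies on chromosome 11, 120667272 to 120685861, in mm9. Elovl6, which lengthens palmitate to stearate, had nearly the same log2 ratio, with 10.8 FPKM in p16 and 6.01 FPKM in GFP, and fell just outside the threshold (q = 0.0539 in the authors' deposited table).

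Both stearoyl-CoA desaturases, which put the first double bond into saturated fatty acids, rose. Scd2 had 219.9 FPKM in p16 and 111 FPKM in GFP, a 1.97-fold rise (q = 0.0152 in the authors' deposited table), and was the most abundant of the called members. Scd1 had 3.11 FPKM in p16 and 1.32 FPKM in GFP, a 2.35-fold rise (q = 0.0184 in the authors' deposited table), and was the least abundant. The genes are neighbours on chromosome 19 in mm9, Scd2 at 44368166 to 44381352 and Scd1 at 44468940 to 44482199. Their longest transcripts in GENCODE M21 share 145 stretches of 50 bases, 3.03% of the 4783 such stretches of Scd1. How reads from shared stretches were assigned is not given in the sources used here, and since Scd2 was far more abundant, the low value of Scd1 is uncertain. The Scd2 locus also holds Mir5114.

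Acsl3, which activates long-chain fatty acids to their CoA esters and sits on forming lipid droplets, had 23.7 FPKM in p16 and 7.91 FPKM in GFP, a log2 ratio of 1.58 (q = 0.00245 in the authors' deposited table). Its locus is on chromosome 1, 78654400 to 78704318, in mm9, and it shares that locus with Utp14b, at 4.28 FPKM in p16 and 2.72 FPKM in GFP.

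None of the 3 genes that supply the synthase passed, and their values in the groups lay close together. Acly, which cuts citrate to cytosolic acetyl-CoA, was the most abundant of all members, at 433 FPKM in p16 and 500.2 FPKM in GFP, a log2 ratio of -0.21 (q = 0.805 in the authors' deposited table). Acaca, the acetyl-CoA carboxylase that makes malonyl-CoA, had 5.69 FPKM in p16 and 6.29 FPKM in GFP (q = 0.862 in the authors' deposited table). Acss2, which makes acetyl-CoA from acetate, had 14.1 FPKM in p16 and 14.1 FPKM in GFP (q = 0.996 in the authors' deposited table). The antisense gene Acss2os lies in its locus, and strand handling is not given in the sources used here, so reads of the pair may be mixed. Within fatty acid synthesis the 3 supply genes thus ran from -0.21 to 0.01 on the log2 ratio scale, and the 5 later genes from 0.85 to 1.58.

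Level and response differed within the list. The 8 called members had a median of 30.1 FPKM in p16 and 14.1 FPKM in GFP, and the 23 tested members that were not called had a median of 29.0 FPKM in p16 and 34.04 FPKM in GFP. In p16 the medians of the called and the uncalled members therefore lay close together, and in GFP that of the called members was the lower. The call itself depends on both values. Across the 31 members, the Spearman correlation of log2 ratio with mean FPKM was -0.28. Across all 13174 tested genes with both values above 0 it was -0.16. Both are descriptions over genes of the same libraries, which are not independent replicates.

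GC content moved with the log2 ratio across the whole table. Over 12526 tested genes with a transcript, the Spearman correlation of GC content with log2 ratio was 0.46, and over the 31 members it was 0.30, both across genes that share the same libraries. Tested genes were placed in 5 equal bins by GC content. Their median log2 ratio was -0.31 in the lowest bin and 0.30 in the highest, and the share called higher was 1.67% in the lowest bin and 8.33% in the highest. The members had a median GC content of 49.1%, and all tested genes 49.7%. From the lowest to the highest bin there were 4, 8, 8, 4 and 7 members, of which 1, 1, 2, 1 and 3 were called higher. The called members could not change sign on centring within these bins, since the largest bin median was 0.30 and their lowest log2 ratio was 0.85. After the median of each gene's own bin had been taken off, the median log2 ratio of the members was 0.52 against 0.50 before. Acsl3, in the lowest bin, then had a log2 ratio of 1.90. Mvd, in the highest bin, had 1.30, and Fasn, also there, had 0.54. Srebf1, Srebf2 and Scap, all in the highest bin, then had log2 ratios of 0.31, 0.39 and 0.08.

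**Figure D3:**
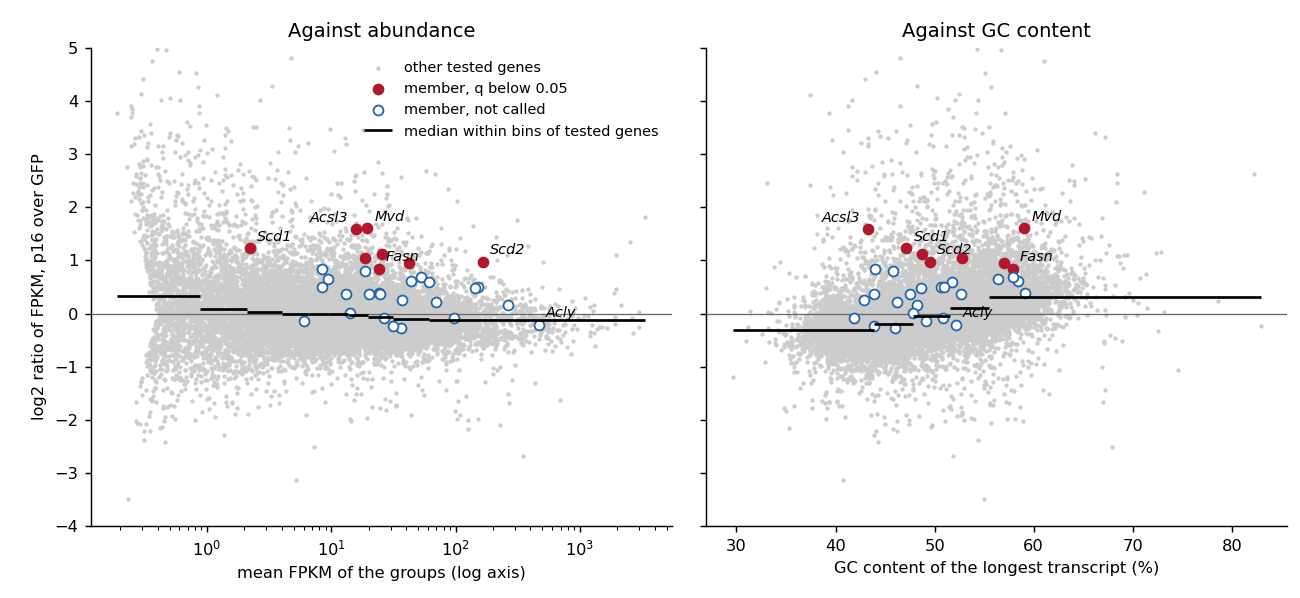
Log2 ratio of FPKM, p16 over GFP, against mean FPKM of the groups (left, log axis) and against transcript GC content in percent (right), with all other tested genes in grey, called members as filled and other members as open points, and black lines for the median of tested genes within 10 bins of mean FPKM or 5 bins of GC content. The 8 called members, all at 0.85 or more, lie above the black lines, none of which exceeds 0.33. The 16 tested genes with ratios beyond the axis and 90 listed at 0 in a group are not drawn. Genes without a GC content are also missing from the right panel. Of 13174 tested genes with both values above 0, 12526 had one.

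The identity of the cells and the induction were checked in the same table. Cdkn2a, the gene of p16INK4a, had 34.6 FPKM in p16 and 0.657 FPKM in GFP (q = 0.00245 in the authors' deposited table). This value for the whole gene does not separate the transgene from the cells' own gene, or its transcripts from one another. Beta cell genes were abundant in both groups, with G6pc2, a glucose phosphatase subunit of beta cells, at 2327 FPKM in p16 and 3012 FPKM in GFP, while Ins1, Ins2 and Iapp are listed at 0 under a status for too many fragments. The 10 beta cell markers, with those 3 at 0, summed to 3605 FPKM in p16 and 4742 FPKM in GFP, and 0 of the 7 tested were called higher and 1, Slc2a2, lower. Markers of other islet and ductal cells were higher with p16 in part. The 5 markers of delta and PP cells summed to 3998 FPKM in p16 and 1866 FPKM in GFP, with 4 of 5 called higher. Sst, at 2678 FPKM in p16 and 1244 FPKM in GFP, was the largest of them, and Hhex was not called. The 7 duct markers summed to 656 FPKM in p16 and 288 FPKM in GFP, with 3 of 6 tested called higher and 1 lower. Most of the duct sum came from Cldn4, at 487 FPKM in p16 and 143 FPKM in GFP, and from Krt7. Krt7 had 152 FPKM in p16 and 134 FPKM in GFP and was not called. The others called higher were Spp1 and Sox9, the latter below 1 FPKM in both groups. Krt19 was called lower, at 1.79 FPKM in p16 and 5.75 FPKM in GFP. The 6 alpha cell markers summed to 2781 FPKM in p16 and 2159 FPKM in GFP, with 1 of 5 tested called higher. Gcg made up most of that sum, at 2263 FPKM in p16 and 1642 FPKM in GFP, and was not called. The 9 acinar markers summed to 21.6 FPKM in p16 and 19.0 FPKM in GFP, with 0 of 8 tested called. The 6 endothelial markers summed to 3.58 FPKM in p16 and 3.02 FPKM in GFP, with 0 of 1 tested called. For the 5 macrophage markers in the table the sums were 3.19 FPKM in p16 and 0.762 FPKM in GFP, with 1 of 2 tested called higher, and for the 7 stellate and fibroblast markers 4.86 FPKM in p16 and 0.511 FPKM in GFP, with 2 of 2 tested called higher. At an unadjusted p-value below 0.05 in the authors' deposited Cuffdiff table there were 1 acinar marker, Cela1, and 0 endothelial markers, and 5 beta cell markers. Of these, Mafa and Pdx1 had the higher value in p16, and Ucn3, Slc30a8 and Slc2a2 the lower. Outside the beta cell list no marker was listed at 0. The part of these cells in the values of the lipid synthesis genes was not tested. Sex-linked transcripts, looked up after their values were known, also differed between the groups. Xist, the transcript of the inactive X chromosome, had 9.56 FPKM in p16 and 3.50 FPKM in GFP and was called higher in the authors' deposited table. Of the Y-linked genes, Eif2s3y had 8.87 FPKM in p16 and 23.3 FPKM in GFP and was called lower, and Ddx3y had 11.5 FPKM in p16 and 24.5 FPKM in GFP and Uty 3.17 FPKM in p16 and 6.32 FPKM in GFP without being called. The labels used here give no sex, and the part of the sex of the mice in the values of the members was not tested. Nsdhl and Ebp are the 2 members on the X chromosome.

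Genes that act on the pathway but are not among the 32 members were described from 8 lists. In the lists for SREBP processing and turnover, sterol receptors and their partners, and isoprenoid branches, no gene was called in either direction. Of 6 tested genes for SREBP processing and turnover, 0 passed and 0 had an unadjusted p-value below 0.05 in the authors' deposited Cuffdiff table. Their median log2 ratio was -0.20. Mbtps1, the first protease that cuts SREBPs, had 41.7 FPKM in p16 and 44.0 FPKM in GFP. Of 5 tested sterol receptors and their partners, 0 passed, 2 had an unadjusted p-value below 0.05 in the authors' deposited table, and the median log2 ratio was 0.14. Nr1h2, which encodes LXR beta, had 21.7 FPKM in p16 and 12.0 FPKM in GFP (q = 0.0591 in the authors' deposited table). Mylip, a ubiquitin ligase and LXR target, had 2.65 FPKM in p16 and 1.57 FPKM in GFP (q = 0.289 in the authors' deposited table). The isoprenoid branches draw on the farnesyl diphosphate pool for ubiquinone, dolichol and prenylated proteins. Among their 6 tested genes 0 passed, 0 had an unadjusted p-value below 0.05 in the authors' deposited table, and the median log2 ratio was -0.13.

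Cholesterol uptake and the supply of acyl precursors held the other calls in the same direction. Of 10 tested genes for cholesterol uptake, storage and movement, 3 rose and 0 fell, all 3 of them lipoprotein receptors. Scarb1, the receptor for high-density lipoprotein, had 20.7 FPKM in p16 and 8.45 FPKM in GFP (q = 0.00441 in the authors' deposited table). Vldlr, a receptor for triglyceride-rich lipoproteins, had 9.36 FPKM in p16 and 4.66 FPKM in GFP (q = 0.013 in the authors' deposited table). Lrp8, a related receptor that binds apolipoprotein E, had 5.74 FPKM in p16 and 2.84 FPKM in GFP (q = 0.0223 in the authors' deposited table). The other 7 genes of this list, among them those for lysosomal export and esterification, ran from -0.19 for Npc2 to 0.73 for Stard5 on the log2 ratio scale, and none passed.

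The list of fatty acid supply and regulation also holds Acat2, whose product acts on the way to mevalonate. Of its 9 tested genes, 2 rose and 0 fell. Acat2, the cytosolic thiolase that joins acetyl-CoA units ahead of HMG-CoA, had 11.8 FPKM in p16 and 4.67 FPKM in GFP (q = 0.00245 in the authors' deposited table). Aacs, which turns acetoacetate into its CoA ester for lipid synthesis, had 52.8 FPKM in p16 and 27.4 FPKM in GFP (q = 0.013 in the authors' deposited table). Slc25a1, the mitochondrial citrate carrier that feeds Acly, had 81.4 FPKM in p16 and 69.9 FPKM in GFP, short of the threshold (q = 0.753 in the authors' deposited table). Over all 61 tested genes of the 8 lists, 5 were called higher and 1 lower, 34 had the higher value in p16 and the median log2 ratio was 0.07. Over all tested genes, 4.32% were called higher, 1.1% were called lower and 48.4% had the higher value in p16. The single call in the lower direction and the count of higher values thus lie near the background. The share called higher was above it, in lists that were chosen with earlier results known.

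**Figure D4:**
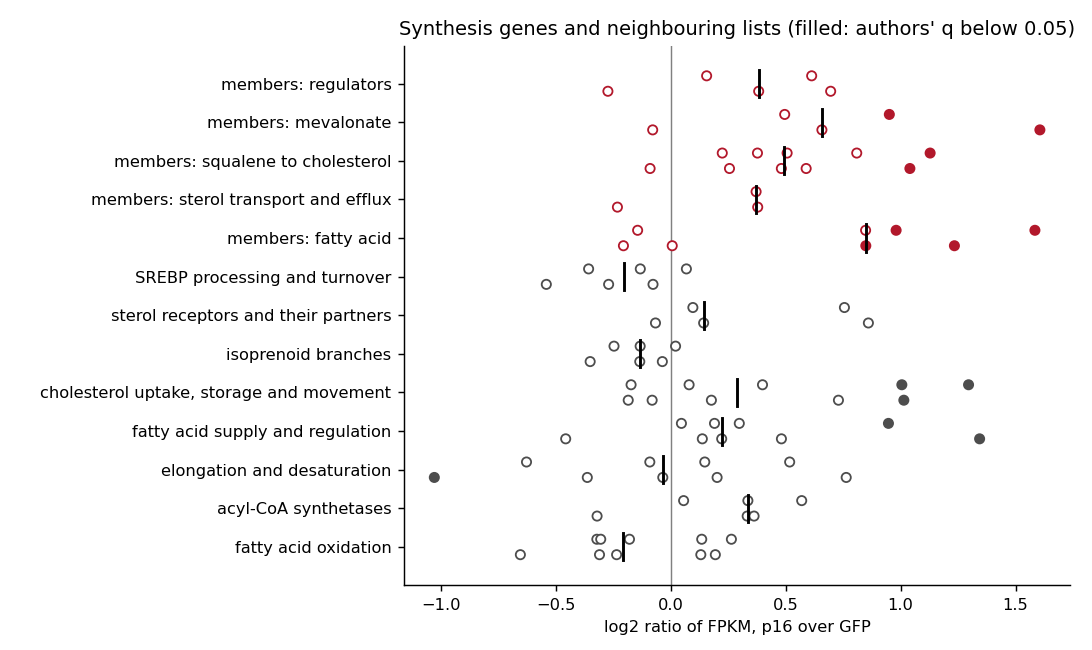
Log2 ratio of FPKM, p16 over GFP, for each tested gene of the 5 member steps (red) and of 8 other lists of lipid genes (grey), with filled points for an authors' q-value below 0.05 and a black bar at each list's median. The medians of the member steps lie between 0.37 and 0.85, and those of the other lists between -0.21 and 0.33.

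The promoter table held 33 promoters of 25 of the 32 members, and the motifs whose matches are capitalised in the sequences above were counted on both strands in windows from 250 bases before to 50 after the start. A gene counted once if any of its promoters held the motif, and neighbouring matches could share letters. The NF-Y box CCAAT stood in promoters of 21 of 25 members, or 84%, against 41.1% of the 27025 genes in the promoter table and 42.7% of the 9776 tested genes with a promoter there. It stood in 6 of 6 called members with a promoter and in 14 of 18 uncalled ones. The Sp1 box GGGCGG stood in 84% of the members as well, against 38.2% of all genes and 68.8% of tested genes, and in 4 of 6 called and 16 of 18 uncalled members. The E-box CACGTG stood in 6 members, or 24%, against 8.09% of all genes and 11.8% of tested genes. The sterol regulatory element TCACNCCAC stood in 1 member, Hmgcs1, against 1.44% of all genes and 1.37% of tested genes. A match describes letters in a window and not a bound site, and where there is no match, only these letters are missing from this window.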

How the data were processed

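RNA-seq of 3 samples with p16 and 2 with GFP alone was processed by the authors on the mm9 build, with TopHat2, Cuffdiff and Cuffnorm, per the submitters' processing notes. The sources used here give no versions, annotation, scaling between libraries or use of strand. The deposited table has the Cuffdiff layout, with 1 FPKM value per group and gene, pooled by the authors over the samples. The authors' p-value and q-value per gene are in the same table, and depth per sample is unknown. A Benjamini-Hochberg adjustment of the p-values over the 13264 tested genes gave the deposited q-values within 5.23e-07, and 271 genes share the smallest p-value, 5e-05.

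Log2 ratios were computed from the FPKM values without a pseudocount. A limma fit was planned for values per sample and could not be made, so calls are the authors'. The members, lists, steps and motifs were chosen with earlier results of these data known. Every member is named, called ones with all values, others with both values where above 20 FPKM or with a p-value below 0.05. Some genes of these pathways are not reported here. GC content came from the longest transcript in GENCODE M21, found for 95.07% of tested genes and used for sequence properties only, since its build is not mm9. Starts were taken as counted from 0, since end minus start equalled the hairpin length for 266 of 272 microRNA genes, and were raised by 1. A locus can hold overlapping genes. Promoters were matched by symbol to RefSeq on GRCm38.p6. Alternatives were pseudocounts of 1 and 5, filters at a mean FPKM of 1 and 5, other thresholds and adjustments, and ratios centred or quantile-normalized. The work was done in Python 3.11.15 with numpy 2.4.6, pandas 2.3.3 and scipy 1.17.1, and matplotlib 3.10.9 drew the plots. The functions for p-value adjustment and quantile normalization were tested on simulated data, and the motif search on a made-up sequence. The other steps were not tested in this way.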

Additional observations from a re-analysis of the deposited data

How the results depend on the processing

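The number of members called higher with p16 was 8 at a q-value below 0.05. It was 8 and 7 with the p-values of the authors' deposited table adjusted again over genes of at least 1 and 5 FPKM, 10 at a q-value below 0.10 and 4 below 0.01 (Mvd, Acsl3, Lss and Dhcr7). With Bonferroni it was 0, as over the whole table, since the smallest p-value times 13264 tests is above 0.05. The median log2 ratio of the members was 0.50, against 0.36 with a pseudocount of 5 and 0.61 centred within 10 bins of mean FPKM. With a pseudocount of 5 the medians were 0.48 for the mevalonate pathway, 0.39 for the sterol route and 0.44 for fatty acid synthesis, where Scd1 had 0.36 against 1.23 without one. Centred within 5 bins of GC content they were 0.20 for the regulators, 0.54 for the mevalonate pathway and 0.26 for transport and efflux. Quantile normalization gave 0.72 for fatty acid synthesis. The log2 ratios of all called members stayed above 0 in these alternatives, Scd1 being left out by the filter at 5 FPKM. Pseudocounts and filters cannot change a sign, and no median taken off exceeded 0.33, against a lowest called log2 ratio of 0.85. These signs are therefore no support for the calls. Of uncalled genes, Idi1 changed sign under quantile normalization and both kinds of centring within bins, and Acss2 under the first. With motifs counted before the start only, the NF-Y box stood in 20 members and the other counts were 1, 21 and 6. No paired analysis was possible because the table holds 1 value per group; for the same reason no replicate could be left out. Unknown depth limits how far genes of low FPKM, such as Scd1, can be read.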

Other observations

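Beyond the members, elongation and desaturation of long fatty acids differed from gene to gene. Of 9 tested genes of that list, 0 rose and 1 fell, 3 had an unadjusted p-value below 0.05 in the authors' deposited Cuffdiff table, and the median log2 ratio was -0.04. Elovl4, which makes very long chain fatty acids, fell to 5.03 FPKM in p16, against 10.3 FPKM in GFP (q = 0.0163 in the authors' deposited table). Elovl2, an elongase of polyunsaturated fatty acids, had 12.7 FPKM in p16 and 19.7 FPKM in GFP, short of the threshold (q = 0.178 in the authors' deposited table). Elovl5, which acts on the same class, had 83.9 FPKM in p16 and 108 FPKM in GFP (q = 0.51 in the authors' deposited table). Elovl7, an elongase of saturated chains, had 3.81 FPKM in p16 and 2.24 FPKM in GFP (q = 0.149 in the authors' deposited table). The polyunsaturated desaturases differed little, with Fads1 at 13.9 FPKM in p16 and 14.8 FPKM in GFP and Fads2 at 12.6 FPKM in p16 and 11.4 FPKM in GFP.

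Of 6 tested acyl-CoA synthetases and fatty acid transport proteins other than Acsl3, 0 passed and 0 had an unadjusted p-value below 0.05 in the authors' deposited Cuffdiff table, and the median log2 ratio was 0.33. Acsl4, which prefers arachidonate, had 18.6 FPKM in p16 and 14.7 FPKM in GFP, and Acsl5, a mitochondrial form, had 20.03 FPKM in p16 and 25.0 FPKM in GFP. Of 10 tested genes of fatty acid oxidation, 0 passed in either direction in the authors' deposited Cuffdiff table, 1 had an unadjusted p-value below 0.05 there, and the median log2 ratio was -0.21. That gene was Acadl, the long-chain acyl-CoA dehydrogenase, at 10.6 FPKM in p16 and 16.7 FPKM in GFP (q = 0.185 in the authors' deposited table). Hadhb, a subunit of the mitochondrial trifunctional protein, had 86.5 FPKM in p16 and 107 FPKM in GFP, and Cpt1a, which admits long-chain acyl groups to mitochondria, had 16.5 FPKM in p16 and 13.8 FPKM in GFP.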
